A study of Arabidopsis thaliana with 12 samples.

Results

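The results concern 150 probe sets whose signal fell in 2 steps, from wild type through each single mutant to the double mutant, of 22810 rows on Affymetrix ATH1 arrays. A probe set is a group of short oligonucleotides designed to read 1 transcript. The arrays measured total RNA of rosettes from untreated Arabidopsis thaliana plants aged 3 weeks, grown at 22 °C with 14 h of light. Each of 4 genotypes had 3 arrays: the double mutant pmr5 pmr6, the single mutants pmr5 and pmr6, and the wild-type accession Col-0. The labels name no alleles and do not say how many plants were pooled. They call the replicates biological, and p-values measure only the spread between these samples. Whole rosettes were used, so fewer cells of a type and less RNA per cell cannot be told apart.

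PMR5 and PMR6 were identified through mutants resistant to powdery mildew, a fungus that grows on living leaf epidermis. PMR6 encodes a pectate lyase-like protein, and PMR5 belongs to a plant family associated with the acetylation of wall polysaccharides. Pectin is the gel-forming polysaccharide between and within plant cell walls, and both mutants are known for walls with altered pectin and for smaller plants. As the pmr5 pmr6 plants carry both mutations, each mutation can be compared in 2 backgrounds: pmr5 in Col-0 and in pmr6, and pmr6 in Col-0 and in pmr5. These are the 4 steps used below.

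Members were chosen on measured values. Intensities were turned to log2(intensity + 28) and averaged per genotype, and each of 13659 rows with a mean intensity of at least 100 and no control (AFFX) identifier received a score. The score is the smallest of the 4 falls, that is, the highest of pmr5 minus Col-0, pmr6 minus Col-0, pmr5 pmr6 minus pmr5 and pmr5 pmr6 minus pmr6. The 150 lowest scores are the members, and probe sets are called here by their rank in score. All 4 steps, and the total fall in pmr5 pmr6, are therefore descriptions of the choice. Scores ran from -0.83 to -0.27 with a median of -0.34 on the log2 scale. The edge is not a natural break: 26 members lay within 0.02 of the last score and 33 rows outside lay within 0.02 beyond it.

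The members cannot be named. The identifiers deposited beside the values did not track them: in 179 same-gene pairs of rows, as the annotation has them, levels correlated at r = 0.06, and the mean correlation of profiles over the 12 arrays was 0.01. Shifting the identifier column by any of 601 displacements gave a level correlation of at most 0.42, below the 0.5 required to accept an order, and the best displacement differed between stretches of the table. The transcripts of PMR5 and PMR6, named pathways and cell type markers were therefore not analysed here, and no sequence is given. The first 64 rows of the table, of which the first 9 correlated with each other at a mean of 0.94, held 0 members.

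Between any 2 arrays the Spearman correlation was 0.937 to 0.973. Instrument records place the arrays in 3 hybridization runs, each with every genotype once, and runs match the replicate numbers. Genotypes kept the same fluidics module throughout: module 4 held pmr5 pmr6, module 2 pmr5, module 3 pmr6 and module 1 Col-0. A difference between modules and one between genotypes cannot be told apart. The dim end was higher on pmr5 pmr6 replicate 3 and pmr5 replicate 1, whose 5th percentiles were 9.2 and 9.6, while the others had 3 to 5. For pmr5 pmr6 replicate 2 the operator stopped a staining step, per the instrument record.

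Across the members the median change was -0.97 in pmr5 pmr6, -0.51 in pmr5 and -0.42 in pmr6, each against Col-0 on the log2 scale. Over the 13659 rows that could be chosen the medians were 0.01, 0.03 and -0.01. The total change in pmr5 pmr6 ranged from -2.20 to -0.59, and 72 members fell at least 2-fold there, counted in intensity + 28. Another 30 rows fell at least 2-fold in pmr5 pmr6 without being members. Counted in the same way, at least 2-fold falls were seen for 8 members in pmr5 and 1 in pmr6 against Col-0. The share of all rows with such falls in the single mutants was not counted, so nothing is read from these 2 counts. The 1 in pmr6 was rank 85. In intensity itself, without the added 28, further members fell at least 2-fold. Rank 13, for example, averaged 1216.9 in Col-0 and 603.9 in pmr6.

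**Figure D1:**
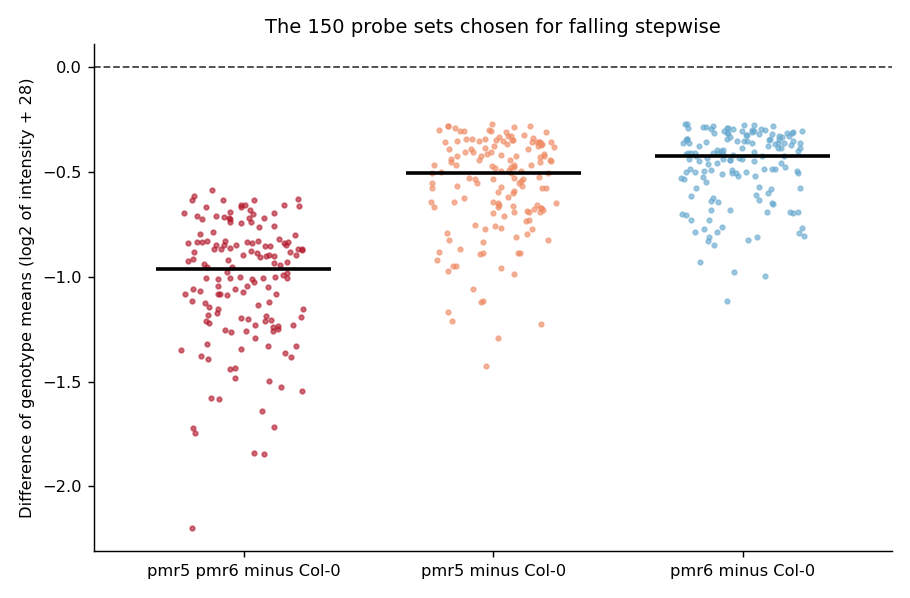
Difference between each mutant's mean and the Col-0 mean, in log2(intensity + 28), for the 150 members (points) with the median as a bar; the dashed line is Col-0. Medians are -0.97 in pmr5 pmr6, -0.51 in pmr5 and -0.42 in pmr6, and all points lie below 0 because the rule required it.

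The probe set ranked 1 combined the lowest score with the deepest total fall of all members. It read 230.7, 167.4 and 211 in pmr5 pmr6, 369.2, 456 and 386.4 in pmr5, 575.5, 540.7 and 581.7 in pmr6, and 907.2, 1123.6 and 1055.7 in Col-0. No array of any genotype overlapped the next, and pmr5 lay below pmr6 on every array. Its total change was log2 -2.20 (SE 0.13), with -1.29 in pmr5 and -0.83 in pmr6. The probe set ranked 4 lay at a similar level. It read 194, 262.8 and 197.3 in pmr5 pmr6, 309.6, 386.2 and 441.5 in pmr5, 479.3, 424.6 and 514.6 in pmr6, and 799.7, 795.1 and 953.3 in Col-0. Here pmr5 and pmr6 overlapped, while pmr5 pmr6 lay below both and Col-0 above both, with a total change of log2 -1.84 (SE 0.14).

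Among the other 3 of the 5 deepest falls, ranks 10 and 33 were bright and rank 5 was dim. Rank 10 read 712.5, 806.3 and 922.6 in pmr5 pmr6, 1090.3, 1435.5 and 1031.5 in pmr5, 1479.1, 1869.6 and 1839.2 in pmr6, and 2613.5, 3392.4 and 2416.8 in Col-0. Its 4 genotypes did not overlap on any array. The fall in pmr5 was 70.2% of the total log2 fall and that in pmr6 39.1%. Each share is read against Col-0, so the 2 need not add up to the whole. Rank 33 read 1485.9, 1661.6 and 1614.3 in pmr5 pmr6, 2079.9, 2666.8 and 1736.1 in pmr5, 2773.3, 3811.6 and 3179.7 in pmr6, and 5585.9, 5645.3 and 6081.9 in Col-0. pmr5 was the nearest genotype to the double mutant there, with 77.3% of the total fall, while pmr6 had 45.1%. Rank 5 read 81.5, 129.1 and 8.6 in pmr5 pmr6, 134.1, 117.7 and 198.7 in pmr5, 132.7, 155.6 and 150.1 in pmr6, and 249.4, 247.5 and 267.2 in Col-0. Its lowest value came from pmr5 pmr6 replicate 3, and its total change was log2 -1.72 with that array and -1.11 without it.

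**Figure D2:**
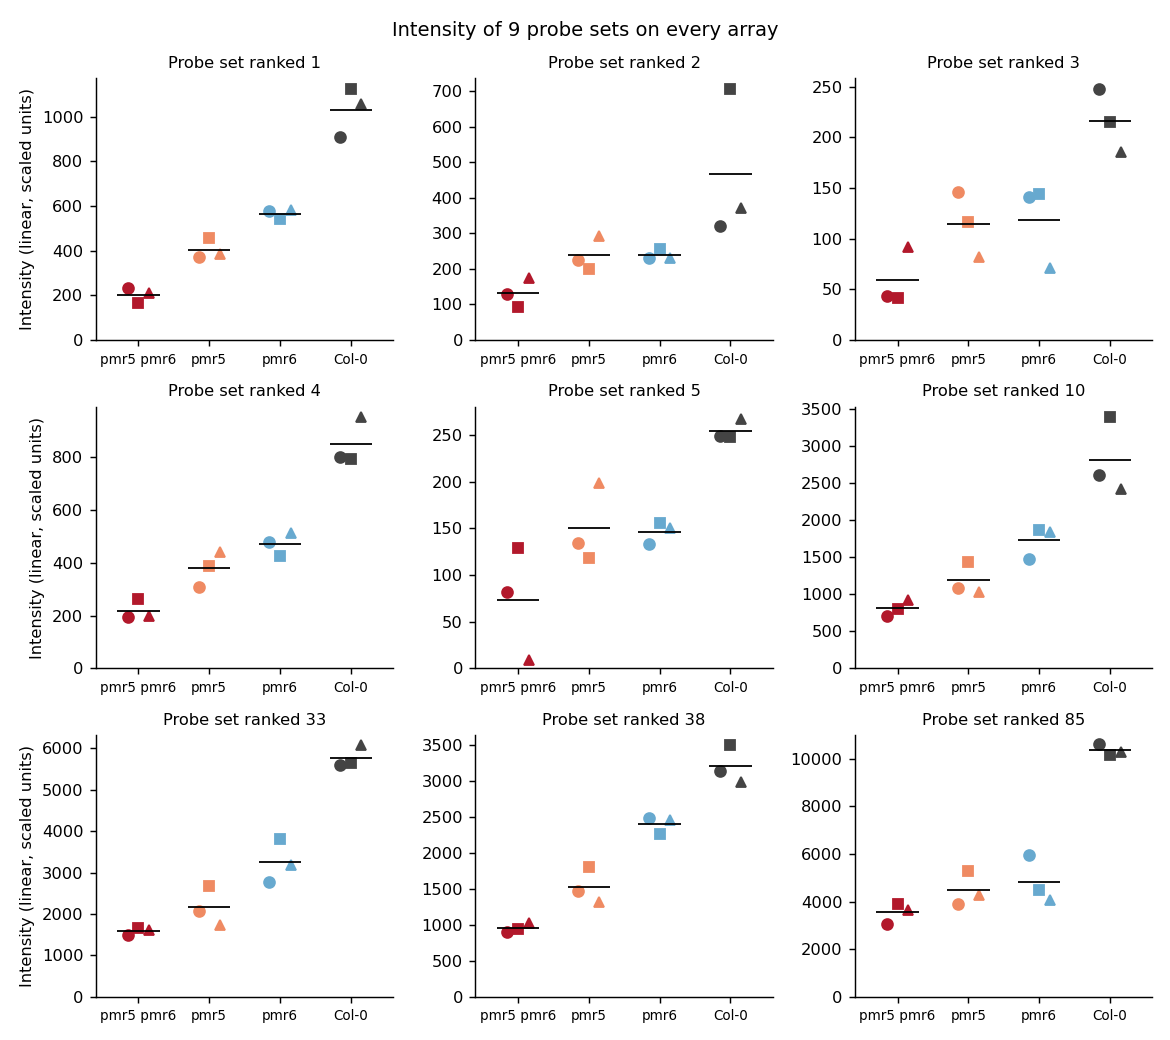
Linear intensity of 9 members on all 12 arrays, 1 panel per probe set, with genotypes from pmr5 pmr6 at the left to Col-0 at the right; circles are replicate 1, squares replicate 2, triangles replicate 3, and bars are means of 3 arrays. In the panel of rank 1 the genotypes stand apart, while in that of rank 5 a single pmr5 pmr6 array is at 8.6.

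The remaining low scores were near-even steps with both single mutants at about the same level. Rank 2 averaged 131.9 ± 41.8 in pmr5 pmr6, 238.6 ± 47.6 in pmr5, 238.2 ± 14 in pmr6 and 465.4 ± 208.8 in Col-0 (SD, n = 3 each). The wide Col-0 spread came from replicate 2 at 704.8, against 321 and 370.4. Rank 3 averaged 59.1 ± 28.5 in pmr5 pmr6, 114.7 ± 32.3 in pmr5, 118.6 ± 41.4 in pmr6 and 216 ± 31.1 in Col-0 (SD, n = 3 each). In pmr5 pmr6 it read 43.6, 41.7 and 91.9, the last of which lay above the lowest arrays of pmr5 (81.5) and pmr6 (70.8). Rank 8 averaged 275.8 ± 49.9 in pmr5 pmr6, 414.7 ± 24.5 in pmr5, 445.5 ± 35.9 in pmr6 and 755.6 ± 6.3 in Col-0 (SD, n = 3 each), with no overlap at any of the 4 steps. Ranks 6, 7 and 9 changed by log2 -1.44, -1.34 and -1.24 in pmr5 pmr6 against Col-0, and their pmr6 minus pmr5 differences were -0.02, -0.04 and -0.11. Rank 6 was dim and read 112, 51.6 and 19.5 in pmr5 pmr6 (SE of its change 0.29). The first of these lay above the lowest arrays of pmr5 (96.5) and pmr6 (95), and the last lay below the pseudocount of 28.

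The 3 members with the smallest spread within genotypes were ranks 20, 52 and 138. The probe set ranked 52 read 3544.2, 3586.1 and 3559.1 in pmr5 pmr6, 4670, 4598.6 and 4776.6 in pmr5, 4482.8, 4778 and 5018.8 in pmr6, and 6256.1, 6376.7 and 6021.9 in Col-0. Its pooled SD within genotypes was 0.05 on the log2 scale against a total change of -0.80. Ranks 20 and 138 had pooled SDs of 0.05 and 0.04 and total changes of -1.15 and -0.63. All 3 had genotypes that did not overlap at any of the 4 steps. The brightest member in Col-0, rank 103, averaged 6962.2 ± 737.6 in pmr5 pmr6, 9745 ± 1324.8 in pmr5, 13165.2 ± 327.3 in pmr6 and 16388.7 ± 717 in Col-0 (SD, n = 3 each). Rank 124, also among the 3 brightest, averaged 5414.3 ± 422.9 in pmr5 pmr6 and 10769 ± 470.3 in Col-0 (SD, n = 3 each).

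In the dim members ranked 141 and 106 a single array carried much of the fall, as in rank 5 above. Such arrays were not searched for over all members, and rank 22, for example, read 29.6, 113.7 and 188.7 in pmr5 pmr6. The probe set ranked 141 read 105.6, 158.7 and 14.6 in pmr5 pmr6, 92.8, 97.2 and 97 in pmr5, 162.1, 100.7 and 149.7 in pmr6, and 141.4, 163.8 and 209.6 in Col-0. Replicates 1 and 2 of pmr5 pmr6 lay above all pmr5 arrays, and the total change was log2 -0.95 with replicate 3 and -0.32 without it. Rank 106 read 12.9, 85.9 and 142.3 in pmr5 pmr6, 132.6, 103.2 and 144.7 in pmr5, 102, 168.8 and 96 in pmr6, and 153.4, 152.5 and 184.2 in Col-0. It changed by log2 -1.04 with replicate 1 of pmr5 pmr6 and -0.45 without it. The dimmest in Col-0, rank 92, averaged 61 ± 26 in pmr5 pmr6 and 161.8 ± 63.4 in Col-0 (SD, n = 3 each). In 4 members at least 1 pmr5 pmr6 array read below the pseudocount of 28.

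At the edge of the choice, rank 149 averaged 657.9 in pmr5 pmr6, 797.3 in pmr5, 865.2 in pmr6 and 1084.3 in Col-0, and rank 150 averaged 554.6, 829.5, 1026.8 and 1245.1 in the same genotypes. Just outside, rank 151 averaged 118.4, 144.2, 144.3 and 190.8, and rank 152 averaged 286.7, 379.4, 353.9 and 461.9. The 4 scores were all -0.27.

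Counted over arrays, all 3 pmr5 pmr6 arrays lay below all 3 Col-0 arrays for 148 of 150 members, where 18.4% of the 13659 rows did so. For pmr5 below Col-0 the count was 135 members (11.9% of rows) and for pmr6 below Col-0 127 (11.6%). For pmr5 pmr6 it was 119 below pmr5 (11.1%) and 126 below pmr6 (14.3%). All 4 steps were free of overlap for 96 members, and for 1.75% of rows, which is 239 rows. The rule used these contrasts, so the counts describe how clean the chosen steps were. The 13659 rows were split into 4 equal classes by mean intensity. In the brightest class 52 of 58 members had no overlap at any step (4.48% of all rows there). In the dimmer classes 28 of 39 (1.85%), 15 of 35 (0.64%) and 1 of 18 members (0.03%) had none. The share fell with level among all rows too.

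In a limma fit to all 12 arrays and 17060 rows, all 150 members were tested. At a Benjamini-Hochberg adjusted p under 0.05, 149 members were lower in pmr5 pmr6 than in Col-0, where 9.38% of rows were. The counts were 104 for pmr5 against Col-0 (3.89% of rows) and 76 for pmr6 against Col-0 (1.26%). They were 69 for pmr5 pmr6 against pmr5 (1.34%) and 102 for pmr5 pmr6 against pmr6 (4.14%). All 4 steps were called for 45 members, 3 steps for 31, 2 for 34, 1 for 10 and 0 for 30. Among the 17060 rows 45 were called at all 4 steps (0.264%), so all of these were members. Since the rule chose on these contrasts, nothing is read from the counts beyond the precision of the fit, with a median SE of 0.12 log2 for a member.

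Of these counts, 2 moved by over 1.5 times when 1 array was left out. The count for pmr6 against Col-0 was 49 and 47 without Col-0 replicate 2 or 3, and 47 without pmr6 replicate 2. The count for pmr5 pmr6 against pmr5 was 39 without pmr5 pmr6 replicate 1, and 41 without pmr5 replicate 3. Without the intensity trend in limma's variance, pmr5 pmr6 against pmr5 gave 17 calls. The same fit gave 27 calls for pmr6 against Col-0. The share of all rows called in that fit was not counted.

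The same steps were then read in arrays that had no part in the choice. The rule was applied to the 8 arrays of 2 hybridization runs, and the 150 rows it gave were read in the 4 arrays of the third. With run 1, 2 or 3 left out, 97, 104 and 103 of the chosen rows were also members. In the run left out, pmr5 pmr6 was lowest and Col-0 highest of the 4 arrays for 106, 110 and 105 of 150 rows, or 70.7%, 73.3% and 70.0%. Among all rows that could be chosen the shares were 13.0%, 16.7% and 14.9%. The order of the genotypes recurred in most chosen rows, on arrays that had not chosen them. Each run has 1 array per genotype, so these shares carry no test. Genotypes kept their fluidics modules in the run left out too, so modules and genotypes cannot be told apart here either.

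The sizes of the steps were read in the same way. The median change of the chosen rows in pmr5 pmr6 against Col-0 was -0.81, -0.87 and -0.80 log2 in runs 1, 2 and 3 when left out. For the 150 members, which all runs helped to choose, it was -0.99, -0.98 and -0.94 within the same runs. The step from pmr5 to pmr5 pmr6 was the smallest in the new arrays, at -0.35, -0.31 and -0.28, and 120, 124 and 124 rows kept its direction. The step from Col-0 to pmr5 was -0.49, -0.53 and -0.50, with 142, 141 and 144 rows in that direction. The step from Col-0 to pmr6 was -0.38, -0.46 and -0.39, and that from pmr6 to pmr5 pmr6 was -0.47, -0.42 and -0.44. Over all rows that could be chosen, these medians lay between -0.03 and 0.03.

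**Figure D3:**
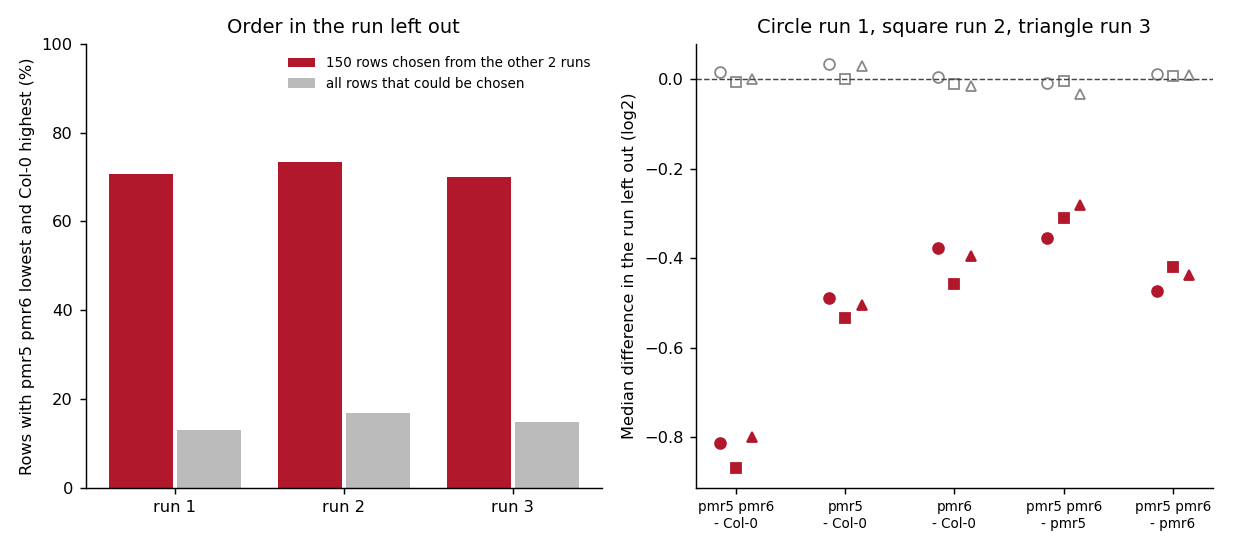
Left, share of rows (%) with pmr5 pmr6 lowest and Col-0 highest in the hybridization run left out, for the 150 rows chosen from the other 2 runs (red) and for all rows that could be chosen (grey). Right, median differences in the run left out (log2), filled red for chosen rows and open grey for all rows, with run 1 as circles, run 2 as squares and run 3 as triangles. The red bars are at 70.7%, 73.3% and 70.0%, the grey ones at 13.0%, 16.7% and 14.9%.

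The rule treats pmr5 and pmr6 alike, so it does not fix which of them is lower. pmr5 was the lower single mutant in 105 members and pmr6 in 45, with a median pmr6 minus pmr5 difference of 0.08 log2. Over all rows that could be chosen pmr5 was the lower in 42.9%, with a median difference of -0.03. The share differed with level, and 59.1% of all rows in the brightest class were lower in pmr5. In that class 51 of 58 members were lower in pmr5, followed by 27 of 39 (38.5% of all rows there), 19 of 35 (36.9%) and 8 of 18 (37.1%) in the dimmer classes. In the runs left out, pmr5 was the lower in 70.7%, 69.3% and 67.3% of the 150 chosen rows, against 47.2%, 47.9% and 42.6% of all rows. The part of the fluidics modules in this difference cannot be told apart from that of the genotypes. The rows set beside the chosen ones include rising rows, and the split among other falling rows was not counted. In the limma fit 3.89% of rows were called lower in pmr5 than in Col-0, and 1.26% lower in pmr6.

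The limma test over all rows called 5 of 150 members between pmr6 and pmr5, all higher in pmr6, where 0.258% of rows were called higher and 0.176% lower. The rule required both single mutants to lie between pmr5 pmr6 and Col-0, so this contrast is not free of the choice. The calls and p-values are given as a description. The probe set ranked 89 read 1692.3, 2065.2 and 1901.7 in pmr6, against 1062.1, 1332.8 and 1099.5 in pmr5 (log2 0.68, SE 0.10, limma adjusted p = 0.002). It stood at 919.7 ± 72.6 in pmr5 pmr6 and 2645.3 ± 149.8 in Col-0 (SD, n = 3 each). The fall in pmr5 was 78.1% of the total log2 fall and that in pmr6 32.4%. Rank 38 read 2490.8, 2259.4 and 2462.8 in pmr6, against 1472.6, 1810.5 and 1319.1 in pmr5 (log2 0.65, SE 0.10, limma adjusted p = 0.0029). Rank 33, described above, and rank 103 were the next, at log2 0.59 (SE 0.12, limma adjusted p = 0.032) and 0.44 (SE 0.09, limma adjusted p = 0.038). The fifth, rank 93, named after its values were seen, read 1507.8, 1830.5 and 1773.5 in pmr6, against 1013.5, 1406.6 and 1038.7 in pmr5 (log2 0.56, SE 0.12, limma adjusted p = 0.049). In all 5 the 3 pmr6 arrays lay above the 3 pmr5 arrays.

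No member was called lower in pmr6 than in pmr5 by limma (0 of 150). An unadjusted limma p under 0.05 in either direction was found for 26 members, and for 1851 of the 17060 rows. The difference furthest below 0 was rank 92, at 113.4, 75.5 and 57.1 in pmr6, against 150.9, 71.8 and 101.4 in pmr5, with log2 -0.30 (SE 0.31). Rank 79 was at 485.5, 458.8 and 446.3 in pmr6, against 607.1, 544.2 and 546.9 in pmr5, with log2 -0.27 (SE 0.12, limma adjusted p = 0.41). Its arrays did not overlap, but it did not pass the test over all rows. Rank 32 was at 331.4, 366.8 and 317.7 in pmr6, against 420, 332.7 and 431.5 in pmr5, with log2 -0.20 (SE 0.13, limma adjusted p = 0.64). In all, the 3 pmr6 arrays lay above the 3 pmr5 arrays for 34 members (7.56% of rows) and below them for 5 (11.3% of rows). The count of 5 calls was 2 without pmr5 replicate 1, pmr5 replicate 3, pmr6 replicate 2 or pmr6 replicate 3, and 3 when pmr5 pmr6 replicate 2 was left out. Leaving out pmr5 replicate 2 gave 8 calls. Without the variance trend 0 of the 150 were called, and 21 had an unadjusted p under 0.05.

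The departure of the double mutant from the sum of the single changes is pmr5 pmr6 minus pmr5 minus pmr6 plus Col-0. The rule ranked rows by the smallest of the steps that make up this value and so favoured even steps and departures near 0, and the members' departures are given as a description. Their median was 0.01 log2, with quartiles of -0.09 and 0.09, against -0.01 over all rows that could be chosen, with quartiles of -0.16 and 0.14. It lay above 0 for 76 members and below 0 for 74 (49.3%), where 51.5% of all rows lay below 0, and 115 members lay within 0.2. The median share of the total fall was 55.0% in pmr5 and 45.2% in pmr6. By limma 0 of 150 members departed from the sum, where 0.117% of rows were called. An unadjusted limma p under 0.05 was found for 7 members, and for 1475 of the 17060 rows. Nothing is read from these counts, since the values are those the rule used. The median SE of a departure was 0.17 for a member. In the runs left out, 86, 91 and 84 of the 150 chosen rows lay above the sum, with medians of 0.04, 0.07 and 0.07, against 48.9%, 50.3% and 47.5% of all rows above it.

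The probe set furthest above the sum was rank 85, one of the brightest. It read 3079.6, 3921.2 and 3656.5 in pmr5 pmr6, 3904.2, 5302.5 and 4271.2 in pmr5, 5950.5, 4477.6 and 4069 in pmr6, and 10611.5, 10181.8 and 10298.7 in Col-0. Each single mutant fell by more than 2-fold, and the second mutation added a step that overlapped by 1 array with pmr5. Its departure was log2 0.78 (SE 0.17). Rank 114 was next, with 310.4 ± 24.1 in pmr5 pmr6, 391.5 ± 51.2 in pmr5, 395.8 ± 29 in pmr6 and 778.6 ± 50.7 in Col-0 (SD, n = 3 each), and a departure of 0.62 (SE 0.17). Its pmr5 pmr6 arrays overlapped neither single mutant. Rank 23 was the third, at 0.53. Furthest below the sum was rank 79, at 261.3 ± 53.5 in pmr5 pmr6, 566.1 ± 35.6 in pmr5, 463.5 ± 20 in pmr6 and 724 ± 20.4 in Col-0 (SD, n = 3 each), with a departure of -0.44 (SE 0.17). Ranks 106 and 5, each with a single low pmr5 pmr6 array, followed at -0.36 and -0.33.

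**Figure D4:**
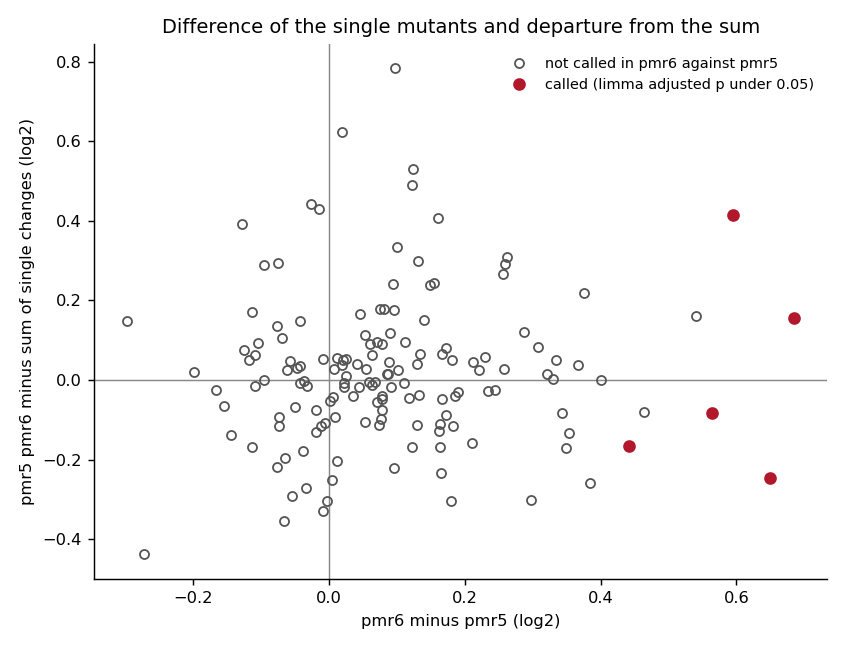
Difference between pmr6 and pmr5 (horizontal, log2) and departure of pmr5 pmr6 from the sum of the single changes (vertical, log2) for the 150 members; filled points are the 5 called in pmr6 against pmr5. Of the 150 points 105 lie right of 0, and 76 lie above and 74 below the horizontal line.

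The rule used genotype means, so the deviations of single arrays from them were free to vary. On the members' median the arrays of a genotype lay close together. The 3 pmr5 pmr6 arrays stood at -1.04, -0.95 and -0.93 log2 from the Col-0 mean, the pmr5 arrays at -0.55, -0.51 and -0.50, the pmr6 arrays at -0.44, -0.47 and -0.39, and the Col-0 arrays at -0.03, 0.00 and 0.03. The genotype means of these medians were -0.97 ± 0.06, -0.52 ± 0.03, -0.44 ± 0.04 and 0.00 ± 0.03 (SD, n = 3 each). All rows that could be chosen had array medians between -0.01 and 0.04. The rule fixed the distance of the mutants from Col-0, so nothing is read from it. The highest pmr5 array was at -0.50 and the lowest pmr6 array at -0.47.

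**Figure D5:**
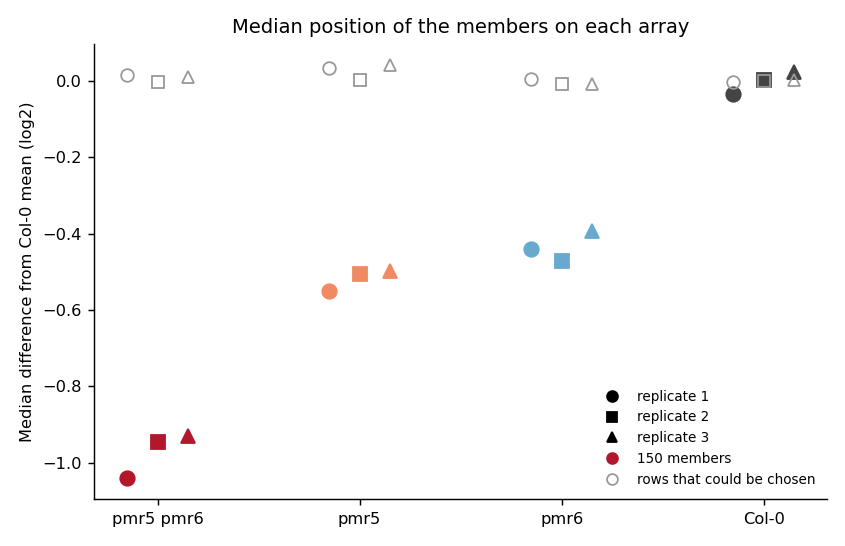
Median difference from the Col-0 mean (log2) on each of the 12 arrays, for the 150 members (filled, coloured by genotype) and for the 13659 rows that could be chosen (open grey); circles, squares and triangles are replicates 1, 2 and 3. The pmr5 pmr6 arrays are at -1.04, -0.95 and -0.93, while the grey points stay between -0.01 and 0.04.

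Within genotypes the members moved together only weakly. The mean pairwise correlation of their deviations was 0.05, against 0.00 over the rows that could be chosen, as a description over 12 arrays that all members share. The first axis of the deviations held 33.9% of their variance. It set pmr5 pmr6 replicate 3 (weight 0.79) against pmr5 pmr6 replicates 1 (-0.51) and 2 (-0.28). Replicate 3 of pmr5 pmr6 also had a weight of 0.77 on the first axis of all rows that could be chosen, which held 19.3%. Among the 53 members in the 2 dimmer classes the axis held 39.1%, and among the 97 in the 2 brighter classes 26.3%. The pooled SD within genotypes had a median of 0.14 log2 over members and 0.16 over all rows, but within each class the members were at or above the rows, with 0.26 against 0.25 in the dimmest and 0.12 against 0.10 in the brightest.

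Averaged over all arrays, members were brighter than the rows they were drawn from, with a median mean intensity of 635 against 449.2. By genotype the medians were 925.8 against 441.6 in Col-0, 616 against 457.4 in pmr5 and 602.2 against 438.5 in pmr6. In pmr5 pmr6 they were 441.5 against 449.5, so members were no brighter there. The rule required Col-0 to lie above the mutants, so the average over genotypes is not free of the choice. From the dimmest class to the brightest there were 18, 35, 39 and 58 members. The median total change was -1.05 log2 in the dimmest class and -0.90 in the brightest.

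All 4 steps pointed down in 2498 of the 13659 rows and up in 2524. At or beyond the size of the last member's score there were 150 rows downward and 331 upward.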

How the data were processed

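Biotin-labelled cRNA from 15 µg of total RNA was hybridized, per the labels' protocols. The authors deposited 1 linear intensity per row and array, and the arrays had been scaled: the mean after trimming 2% at each end was 500.0 or 500.1 on all 12. The sources used here do not name the software that made them. No detection calls were used. The deposited values were used with no further normalization, as log2(intensity + 28), where 28 is about the 20th percentile of the table (27.6), so changes of dim probe sets are understated. The 64 rows with an AFFX identifier and the dimmest 25% were left out of the fit. As identifiers did not track values, these 64 rows need not be the control probe sets. Rows with spike-in control identifiers correlated at a mean of -0.01. limma 3.58.1 in R 4.3.3 fitted 4 genotype means with eBayes and an intensity trend (8 residual and 12.1 prior degrees of freedom), and p-values were adjusted over all 17060 rows. The fit was run on simulated data with independent normal noise and changes added only in pmr5 pmr6. That simulation held no module differences and no single low arrays, so it says nothing about them. Plots used matplotlib 3.10.9 under Python 3.11.15. Arrays hybridized at most 30 minutes apart formed a run, from the times in the deposited instrument records.

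The members and tests were chosen with earlier results of these data known. Described members are the 10 lowest scores, the 5 deepest falls, the 3 extremes each way in pmr6 minus pmr5 and in the departure from the sum, the 3 brightest and dimmest in Col-0, the 3 widest and narrowest within genotypes, and the 2 rows on each side of the edge. Gene lists and marker lists were drawn up but not used, since rows could not be named. Alternatives were other pseudocounts, dim filters and moderation, quantile normalization, a replicate block and leaving out each array. The number of arrays limits the precision.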

Additional observations from a re-analysis of the deposited data

How the results depend on the processing

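Of the 150 members, 111 to 139 stayed among the 150 lowest scores with a pseudocount of 4 or a higher one, quantile normalization, another intensity minimum or genotype medians, and 119 to 135 without any 1 array. Without replicate 1, 2 or 3 of every genotype 97, 104 and 103 stayed. Their median change in pmr5 pmr6 against Col-0 was -1.02 with a pseudocount of 4, -0.85 with the higher one, -1.01 with quantile normalization, -0.99 without both arrays that had a raised dim end (added after seeing the data), and -0.996 to -0.934 without any 1 array. Without the variance trend the calls were 27 for pmr6 against Col-0, 17 for pmr5 pmr6 against pmr5 and 0 by limma for pmr6 against pmr5 (21 at an unadjusted p under 0.05). The share of all rows called in that fit was not counted, and the cause was not tested. Leaving out 1 array gave 144 to 149 calls for pmr5 pmr6 against Col-0, 83 to 109 for pmr5 against Col-0, 47 to 83 for pmr6 against Col-0, 39 to 71 and 77 to 103 for pmr5 pmr6 against pmr5 and pmr6, 2 to 8 for pmr6 against pmr5, and 0 to 1 departures from the sum, with the 1 departure seen without pmr5 replicate 2 or without pmr6 replicate 1. The calls for pmr6 against pmr5 were also 2 with no dim filter, 3 with quantile normalization and 2 without both arrays with a raised dim end. The same-number arrays deviated together at r between -0.05 and 0.14, not over 0.1 in every pair. With the replicate block there were 149 calls for pmr5 pmr6, 105 for pmr5 and 82 for pmr6 against Col-0, 79 for pmr5 pmr6 against pmr5 and 7 for pmr6 against pmr5, and no count moved by over 1.5 times. pmr5 was the lower single mutant in 117 members with quantile normalization (49.6% of rows) and in 98 to 110 without any 1 array, both chosen after seeing the data. In the runs left out, 96 to 121 chosen rows kept all 4 steps under the other settings. For the 28 single members described, 402 of 420 alternative values moved by less than 1 SD and 0 changed sign. Dim probe sets limit what can be read, since no detection calls were used.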
